A study of Mus musculus with 14 samples.

Results

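The 41 genes described here encode the enzymes, transporters and regulators through which the mouse liver handles glucose, fructose and glycogen, together with 4 genes of the insulin response. They were chosen by name, from a list drawn up with earlier results of these data known, and not by a threshold on any value. All 41 were found among the 55427 gene entries of the deposited table, and 37 of them were among the 12110 genes that passed the filter on low values and were tested. The list holds 14 genes of glycolysis and its control, 4 of fructose and polyol metabolism, 5 of gluconeogenesis, 7 of glycogen metabolism, 2 glucose transporters, 4 of insulin signalling and 5 of the pentose phosphate pathway.

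Liver RNA was sequenced from male mice with a floxed Rage allele (the receptor for advanced glycation end-products, AGEs) after 14 weeks of feeding that began at 8 to 10 weeks of age. The groups were Chow (3 libraries), a fast-food diet (FFD, 3 libraries), the same kind of diet made rich in AGEs by cooking at high temperature (HiAD, 3 libraries, with vehicle injections), HiAD with pyridoxamine (HiAD + PM, 2 libraries), and HiAD in mice that also carried Albumin-cre (HiAD RageHepKO, 3 libraries). All 5 groups shared the floxed allele on a C57B6 background. Pyridoxamine, which inhibits AGE formation, was injected at 60 mg per kg daily from week 5. Albumin-cre acts in hepatocytes, whereas the RNA came from whole liver. FFD and HiAD mice also drank water with high-fructose corn syrup, so that both diets brought a sugar load that chow did not. The study states free access to food unless otherwise indicated. The sources used here do not say whether food was withdrawn before the livers were taken, nor at what time of day that was.

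The liver takes up glucose after a meal, stores it as glycogen or breaks it down to pyruvate for lipid synthesis, and between meals it releases glucose from glycogen and from gluconeogenesis. Insulin and glucagon set the direction, in large part through transcription: FOXO1, PGC-1α and cyclic AMP signalling raise gluconeogenic genes, and the carbohydrate response factor ChREBP (gene Mlxipl) raises glycolytic and fructolytic genes. Fructose enters below the main control point of glycolysis, through ketohexokinase, aldolase B and triokinase. Many of these genes therefore differ between fed and fasted livers.

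Values are FPKM (fragments per kilobase of exon, relative to the library's mapped fragments), scaled between libraries by a trimmed mean of log ratios. Fold changes come from limma on log2(FPKM + 1), which understates the change of genes with low levels, with Benjamini-Hochberg adjustment over all 12110 tested genes in each comparison. A gene is said to have risen or fallen where the adjusted p was under 0.05. Fits without a single library are often named below because they changed a call. The library left out often held an extreme value of the same gene. The p-values of such fits are therefore a description and not independent support. The table gives no depth, and precision is therefore judged from the spread between the 2 or 3 libraries of a group. Several facts about the libraries bear on all comparisons. Ager, which encodes RAGE, lay between 0.0811 and 0.184 in the HiAD libraries. It lay between 0.801 and 2.15 on Chow, 2.47 and 2.78 on FFD, and 2.49 and 2.75 on HiAD + PM. In the HiAD libraries labelled RageHepKO it was at 0.198 in library 19, 1.90 in library 20 and 1.83 in library 21. These values were above HiAD but below FFD and HiAD + PM. The label points to a lower level in hepatocytes, which RNA of whole liver does not separate from other cells. HiAD was thus the lowest of the 5 groups, and the reason was not tested. The libraries with that label are called the libraries labelled RageHepKO here. Mitochondrially encoded genes made up 24.3% to 53.1% of all FPKM in these 3 libraries and 6.06% to 24.1% in the other 11. All 8 hepatocyte markers were among the tested genes, and their summed level lay between 21539 and 55690, while markers of skeletal muscle, adipocytes and pancreas summed to less than 1 in every library, with Lep and Prss2 at 0 throughout. The 5 cholangiocyte markers summed to 91.0 to 145 on HiAD and to 15.3 to 36.3 in the other groups, and the 6 stellate cell markers to 40.5 to 52.4 on HiAD and to 15.5 to 36.1 elsewhere. The part of these shifts in the results was not tested, and in bulk liver RNA fewer cells of a type and less RNA per cell cannot be told apart. The sample titles give HiAD the letter B and the libraries labelled RageHepKO the letters RA. Chow, FFD and HiAD + PM have the letter R. What the letters mark is not stated. In each comparison with HiAD, anything they stand for cannot be told apart from the diet, PM or the RageHepKO label.

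The members spanned a wide range of levels. Per length of transcript, Pck1 (phosphoenolpyruvate carboxykinase, the committed step of gluconeogenesis) was the highest, with a mean of 994 FPKM over the 14 libraries and a range of 268 to 1900.2. Sord (sorbitol dehydrogenase) followed with a mean of 529, then Fbp1 (fructose-1,6-bisphosphatase) with 352, Ldha (lactate dehydrogenase A) with 286 and Gapdh with 204. Their ranges overlapped, so that neighbours in this order were not separated. In all, 6 members had a mean of at least 100, 18 a mean of 10 to 100, 13 a mean of 1 to 10 and 4 a mean below 1. Those 4 were the members that were not tested. Hk1 and Hk2, hexokinases of tissues other than hepatocytes, reached at most 0.216 and 0.782, and Pfkfb1, the liver isoform of the enzyme that makes and breaks fructose-2,6-bisphosphate, reached 1.15 in only 1 library. Aldoa, the muscle-type aldolase, was at most 0.246 and was listed at 0 in most libraries. GENCODE gives the name Aldoa to 2 Ensembl genes, which the table does not separate, so that its value is uncertain.

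**Figure D1:**
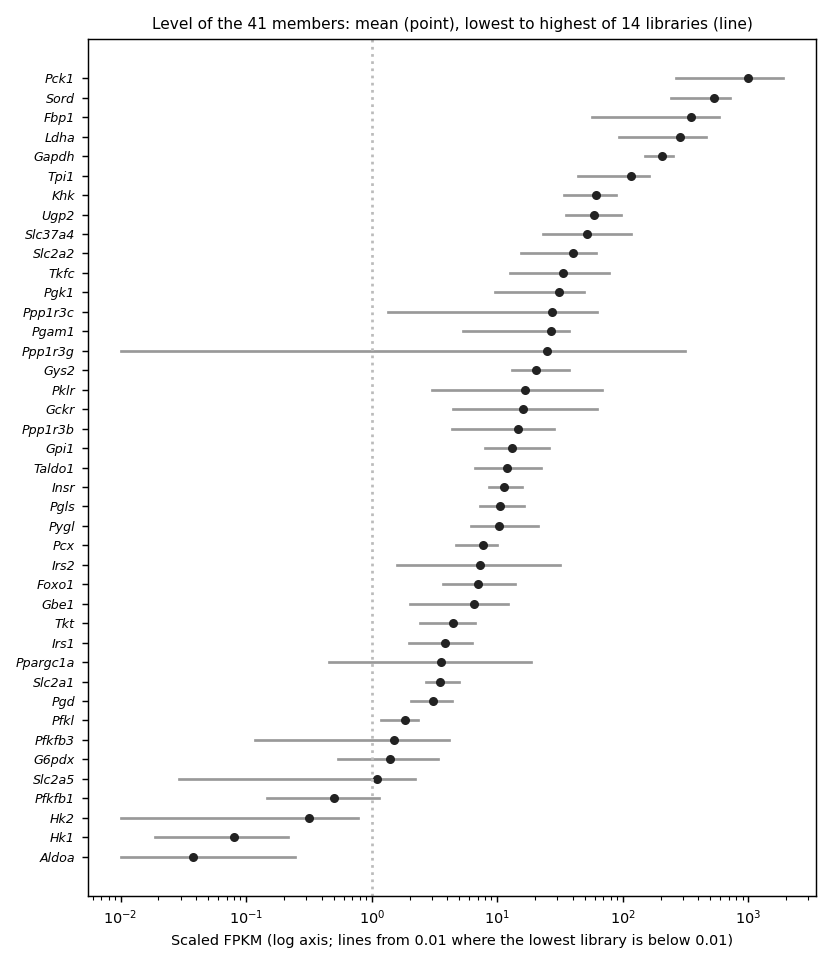
Scaled FPKM of the 41 members on a log axis, with the mean of the 14 libraries as a point and the lowest to the highest library as a line. Pck1 stands at the top with a mean of 994 and Aldoa at the bottom, and Ppp1r3g has the widest range, from 0 to 314.

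Of the 37 tested members, 17 passed the threshold in at least 1 of the 5 comparisons, 15 of them in 1 comparison, Ugp2 in 2 and Tkfc in 3. FFD against Chow gave no call among the members (0 of 37, against 0.0661% of all tested genes in limma, 0.00826% higher and 0.0578% lower), with 7 of the 37 members and 10.1% of all genes at an unadjusted p under 0.05. HiAD against Chow gave 1 (Tkfc, lower; 2.7% of members against 4.62% of all genes in either direction and 1.82% lower). HiAD against FFD gave 1 (Slc37a4, higher; against 3.1% of all genes in either direction, 1.66% higher and 1.45% lower). HiAD + PM against HiAD gave 4, all higher (10.8% of members, beside 6.45% of all genes in either direction and 3.31% higher). There 14 of the 37 members had an unadjusted p under 0.05, beside 20.1% of all genes. The libraries labelled RageHepKO against HiAD gave 14 calls, of which 8 were higher (15.7% of all genes were) and 6 lower (17.7% of all genes were). These 14 are 37.8% of the members beside 33.4% of all genes, and the 2 groups did not overlap for 19 members, beside 44% of all genes. In this comparison the share of the list was thus close to that of all genes. With PM the share called higher was larger than that of all genes (10.8% against 3.31%). This share rests on 4 members of a list drawn up with earlier results known, and it was not tested as a set. Single genes carry what follows. HiAD is the reference of the last 2 comparisons and the first group of the 2 before them, and their values are therefore given side by side without an overlap between them.

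**Figure D2:**
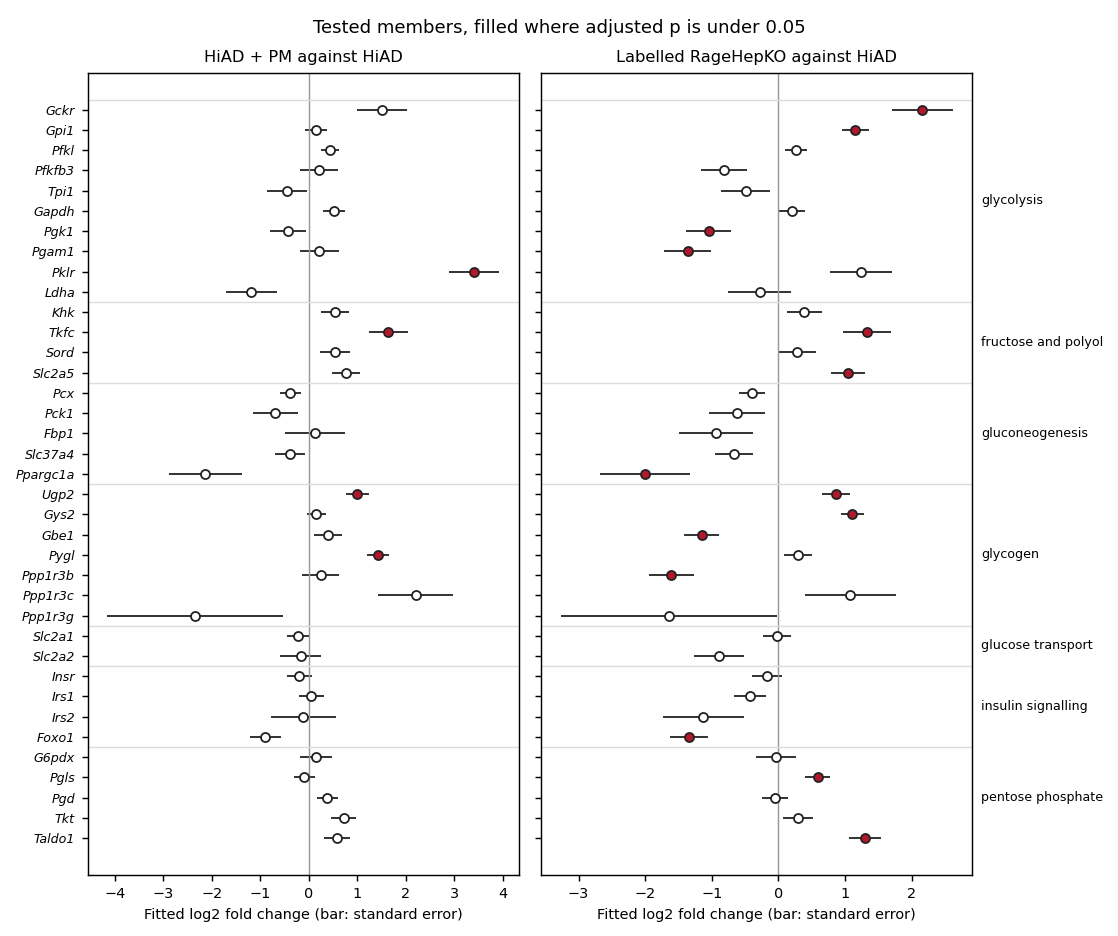
Fitted log2 fold change of each of the 37 tested members, with its standard error as a bar, for HiAD + PM against HiAD (left) and the libraries labelled RageHepKO against HiAD (right), grouped by role and filled where the adjusted p is under 0.05. On the left 4 members are filled, led by Pklr at 3.41, and on the right 14 are filled, 8 above 0 and 6 below.

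In glycolysis, the clearest change was in Pklr (chromosome 3, 89136142 to 89146784, GRCm38), which encodes liver pyruvate kinase, the last step of glycolysis. Pklr was at 15.9, 10.01 and 15.2 FPKM on Chow, 6.06, 8.04 and 9.33 on FFD, and 3.02, 6.92 and 3.49 on HiAD. With PM it was at 44.2 and 67.8, and in the libraries labelled RageHepKO at 29.4, 5.61 and 8.32. Both PM libraries lay above all 12 others, and the HiAD libraries lay below all Chow libraries. Pklr rose with PM by 3.41 on the log2 scale (standard error 0.52, limma adjusted p = 0.00244), a ratio of group means of 12.5. Without PM library 19 the adjusted p was 0.0535, with the other PM library taken to vary like the remaining groups. HiAD against Chow was at −1.47 ± 0.47 (SE) with a limma adjusted p of 0.0968. That comparison rests on a spread shared with the libraries labelled RageHepKO, and without RageHepKO library 19 the same difference had an adjusted p of 0.0129.

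Pklr is a textbook target of ChREBP, which binds a pair of E-box-like half-sites. The start region of Pklr is printed because Pklr had the largest fold change among the called members, and that of Txnip because it is another target of the factor and is described further on. Sequences are from RefSeq on GRCm38.p6 (250 bases before to 50 after the start RefSeq gives), 5′ to 3′ on the strand of the gene, with capitals for a match on either strand to CACGNG and CNCGNG set 5 bases apart.
Pklr, chr3:89136373-89136672, plus strand: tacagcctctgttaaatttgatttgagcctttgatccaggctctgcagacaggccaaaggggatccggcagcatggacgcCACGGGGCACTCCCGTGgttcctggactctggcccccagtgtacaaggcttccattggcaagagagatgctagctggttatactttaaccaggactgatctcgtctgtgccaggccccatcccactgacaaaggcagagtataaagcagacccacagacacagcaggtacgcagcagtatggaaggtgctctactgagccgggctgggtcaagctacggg
Txnip, chr3:96557707-96558006, plus strand: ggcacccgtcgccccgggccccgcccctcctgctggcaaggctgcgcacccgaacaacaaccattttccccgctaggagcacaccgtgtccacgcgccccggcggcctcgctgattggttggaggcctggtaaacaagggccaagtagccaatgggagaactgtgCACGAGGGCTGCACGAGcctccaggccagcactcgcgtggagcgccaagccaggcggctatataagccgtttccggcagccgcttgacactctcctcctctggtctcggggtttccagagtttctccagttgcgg
The match in Pklr spans 170 to 154 bases before the start, and that in Txnip 85 to 69 bases before it. This pattern was chosen after the values were seen. It occurred in 0.365% of all 32851 windows, and among the 38 members with a window only in Pklr. The shorter E-box core CACGTG, which such a match can contain, was in the windows of 7 members (Irs1, Irs2, Khk, Ldha, Pcx, Pfkfb3 and Ppp1r3c), or 18.4% of the 38, against 8.09% of all genes with a window. A match describes letters and not a bound site. Ppp1r3b, Insr and Gys2 had no entry among the windows.

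Gckr encodes a regulatory protein that restrains the phosphorylation of glucose in hepatocytes when glucose is low. It was at 16.6, 9.28 and 24.5 on Chow, 12.1, 5.07 and 5.81 on FFD, 6.65, 4.44 and 5.48 on HiAD, 18.6 and 16.5 with PM, and 61.8, 16.1 and 21.4 in the libraries labelled RageHepKO. The HiAD values were below every value of Chow, PM and the libraries labelled RageHepKO. Gckr was higher in the libraries labelled RageHepKO than on HiAD by 2.16 ± 0.46 on the log2 scale (limma adjusted p = 0.00453), and by 1.60 (adjusted p = 0.0105) without library 19, which held the 61.8. The difference with PM was 1.52 ± 0.51, with a limma adjusted p of 0.112.

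Gpi1, glucose-6-phosphate isomerase, was at 10.2, 8.92 and 10.6 on HiAD and 21.9, 22.2 and 26.0 in the libraries labelled RageHepKO, while Chow (7.96, 8.29, 13.9), FFD (9.20, 9.60, 11.3) and PM (11.1, 11.1) all stayed at or below 13.9. The 3 libraries labelled RageHepKO were thus the 3 highest of the 14, and the change from HiAD was 1.16 ± 0.20 (limma adjusted p = 0.00152). The enzymes of lower glycolysis did not move with it. Pgk1, phosphoglycerate kinase, was at 29.6, 21.2 and 15.4 on Chow, 49.3, 37.7 and 43.9 on FFD, 44.1, 34.2 and 39.8 on HiAD, 29.96 and 27.9 with PM, and 9.58, 21.3 and 30.3 in the libraries labelled RageHepKO. Pgam1, phosphoglycerate mutase, was at 36.2, 26.0 and 15.8 on Chow, 34.0, 29.8 and 35.5 on FFD, 29.0, 35.2 and 26.5 on HiAD, 37.6 and 32.8 with PM, and 5.38, 15.3 and 15.9 in the libraries labelled RageHepKO. For both genes the libraries labelled RageHepKO lay wholly below HiAD. Pgam1 was lower there by −1.36 ± 0.36 (limma adjusted p = 0.0119) and Pgk1 by −1.05 ± 0.34 (adjusted p = 0.0313). Without RageHepKO library 19, which had the lowest value of both genes, Pgam1 was still lower (−0.90, adjusted p = 0.0292) and Pgk1 no longer passed (−0.61, adjusted p = 0.0942), as was the case without any 1 of the HiAD libraries.

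Ldha and Gapdh, the most abundant glycolytic members, passed in no comparison. Ldha, which interconverts pyruvate and lactate, was at 260.0, 203 and 197 on Chow, 283, 453 and 368 on FFD, 324, 312 and 332 on HiAD, 160.2 and 124 with PM, and 93.4, 459.6 and 433 in the libraries labelled RageHepKO. The PM libraries lay below all Chow, FFD and HiAD libraries, and RageHepKO library 19 stood far from its group mates. PM against HiAD was at −1.19 ± 0.53 for Ldha, with a limma adjusted p of 0.231, which became 0.0103 without that library. Gapdh was at 223, 202 and 243 on Chow, 174, 173 and 202 on FFD, 162, 215 and 151 on HiAD, 250.1 and 252 with PM, and 236, 177 and 194 in the libraries labelled RageHepKO, so that its highest and lowest libraries differed less than those of Ldha. The other tested glycolytic members were Pfkl, Pfkfb3 and Tpi1. Pfkl, the liver phosphofructokinase, was between 1.19 and 2.34 in all libraries. Tpi1, triose phosphate isomerase, was between 43.8 (RageHepKO library 19) and 161, and Pfkfb3, another fructose-2,6-bisphosphate enzyme, between 0.118 and 4.12.

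**Figure D3:**
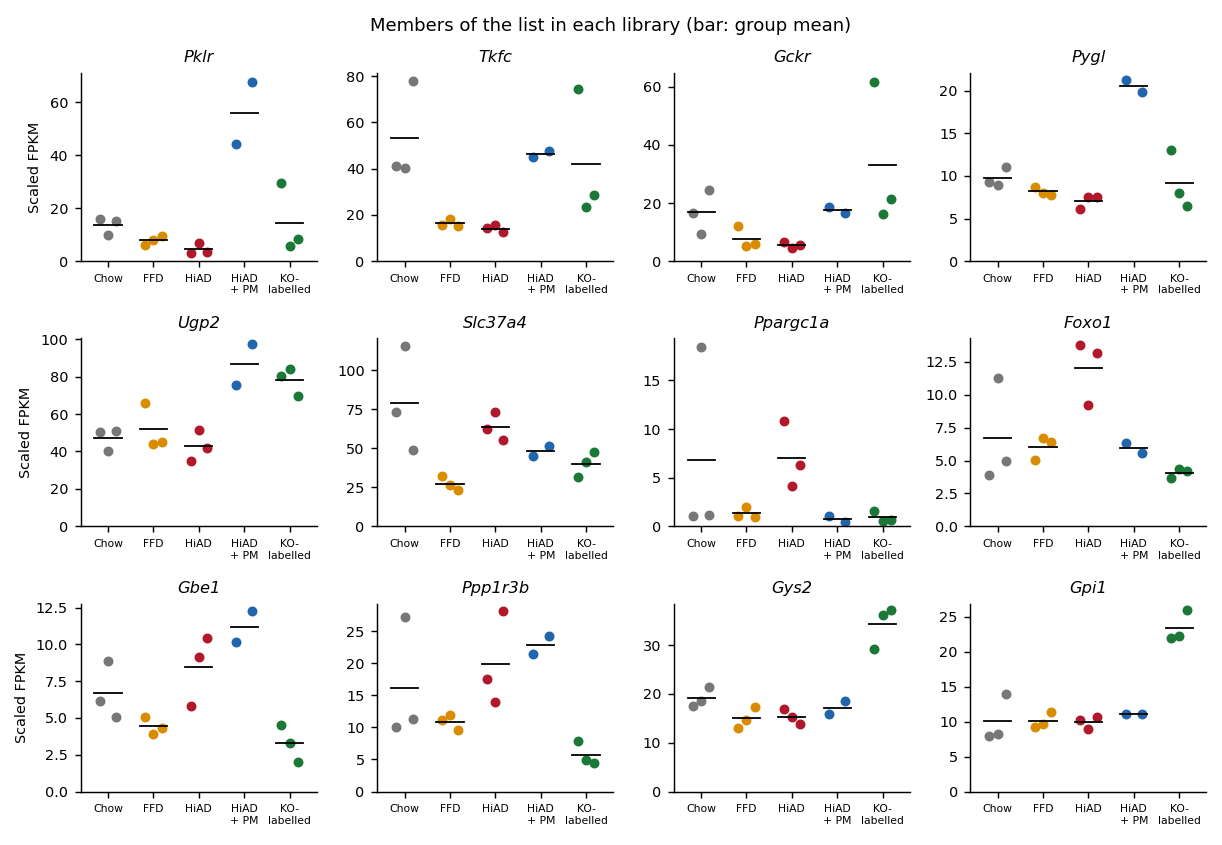
Scaled FPKM of 12 members in each of the 14 libraries (points), with the group mean as a bar, on axes that start at 0. Tkfc is at 12.6 to 18.2 in the 6 FFD and HiAD libraries and at 23.3 or more elsewhere, Pklr and Pygl are highest with PM, and Gys2 and Gpi1 are highest in the libraries labelled RageHepKO.

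Among the genes of fructose metabolism, Tkfc was the member called most often. Tkfc (chromosome 19, 10587791 to 10605654) encodes triokinase, which phosphorylates the glyceraldehyde made from fructose. It was at 41.1, 40.2 and 78.0 on Chow, 15.8, 18.2 and 15.0 on FFD, 14.1, 15.6 and 12.6 on HiAD, 44.8 and 47.4 with PM, and 74.2, 23.3 and 28.5 in the libraries labelled RageHepKO. All 6 FFD and HiAD libraries lay below all 8 others. HiAD was lower than Chow by −1.78 ± 0.36 (limma adjusted p = 0.0153), a ratio of 3.76 between the means. FFD against Chow had a difference of −1.58 ± 0.36 with a limma adjusted p of 0.192, in a comparison in which 8 of 12110 genes passed, and the adjusted p was 0.0274 without RageHepKO library 19. From HiAD, Tkfc rose with PM by 1.65 ± 0.41 (limma adjusted p = 0.0312) and was higher in the libraries labelled RageHepKO by 1.33 ± 0.36 (adjusted p = 0.0153). The PM call was lost without either PM library or any 1 of the HiAD libraries, with adjusted p-values of up to 0.231. The call against Chow was lost without Chow library 3 or HiAD library 3 (adjusted p = 0.0670 and 0.0729), and that in the libraries labelled RageHepKO without HiAD library 3 (0.0514) and with scaling to the sum without mitochondrial genes (0.0721).

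Of the other genes of this group, Khk and Sord did not pass in any comparison. Khk, ketohexokinase, which starts fructose breakdown, was at 52.6, 34.0 and 64.7 on Chow, 69.1, 45.6 and 48.0 on FFD, 56.7, 46.6 and 64.4 on HiAD, 73.9 and 88.3 with PM, and 82.9, 59.8 and 78.0 in the libraries labelled RageHepKO. Sord, which makes fructose from sorbitol, was at 460.4, 241 and 496 on Chow, 721, 534 and 684 on FFD, 454, 388 and 499.7 on HiAD, 589 and 706 with PM, and 568, 465 and 602 in the libraries labelled RageHepKO. For both genes the 2 PM libraries lay above the 3 HiAD libraries, without passing the test (differences of 0.54 ± 0.29 for Khk and 0.54 ± 0.31 for Sord). Slc2a5, the fructose transporter GLUT5, was near the filter, at 2.21, 0.816 and 0.913 on Chow, 0.894, 1.15 and 1.35 on FFD, 0.0290, 0.718 and 0.117 on HiAD, 1.31 and 0.972 with PM, and 2.17, 1.33 and 1.35 in the libraries labelled RageHepKO. The 3 HiAD libraries were the lowest of the 14. Slc2a5 was higher in the libraries labelled RageHepKO than on HiAD by 1.04 ± 0.26 (limma adjusted p = 0.00902), and by 0.85 (adjusted p = 0.0540) with sample weights.

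In gluconeogenesis, Slc37a4 was the only member called between the 2 sugar-loaded diets. Slc37a4 (chromosome 9, 44396852 to 44402968) encodes the carrier that brings glucose-6-phosphate to glucose-6-phosphatase. It was at 73.6, 116 and 48.8 on Chow, 32.1, 26.2 and 23.0 on FFD, 62.6, 73.6 and 55.5 on HiAD, 45.2 and 51.4 with PM, and 31.6, 41.3 and 47.4 in the libraries labelled RageHepKO. All FFD libraries lay below all HiAD and all Chow libraries. HiAD was higher than FFD by 1.21 ± 0.28 (limma adjusted p = 0.0359), a ratio of means of 2.36. This call was lost in 11 of 25 alternatives, among them the removal of any 1 HiAD or FFD library, of Chow library 1 or of either PM library, with adjusted p-values of up to 0.126 and differences of 1.10 to 1.33. FFD against Chow was at −1.44 ± 0.28 with a limma adjusted p of 0.0970, the smallest of any member in that comparison.

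Ppargc1a encodes PGC-1α, a coactivator of the fasting program. It was at 1.01, 18.4 and 1.18 on Chow, 1.10, 1.995 and 0.969 on FFD, 10.8, 4.13 and 6.26 on HiAD, 1.06 and 0.460 with PM, and 1.57, 0.592 and 0.648 in the libraries labelled RageHepKO. Apart from Chow library 2, the HiAD libraries were the highest 3 of the series. The libraries labelled RageHepKO were lower than HiAD by −2.01 ± 0.68 (limma adjusted p = 0.0384), a call that was lost without HiAD library 1 or 3, either PM library or any 1 library labelled RageHepKO (adjusted p up to 0.118). The differences of HiAD from Chow (0.79 ± 0.68) and from FFD (1.72 ± 0.68) and of PM from HiAD (−2.13 ± 0.76) did not pass, with limma adjusted p-values of 0.566, 0.223 and 0.130. Without Chow library 2 these differences were 1.86, 1.72 and −2.13, with limma adjusted p-values of 0.00828, 0.00814 and 0.00270. That library held the extreme Chow value of this gene, so these p-values are not independent support.

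Pck1 was at 1212, 1900.2 and 1884 on Chow, 1143, 1426 and 983 on FFD, 849, 1152 and 556 on HiAD, 646 and 396 with PM, and 268, 721 and 774 in the libraries labelled RageHepKO. Its HiAD values were all below its Chow values, at a difference of −0.997 ± 0.41 (limma adjusted p = 0.200). Fbp1 was at 354, 587 and 197 on Chow, 427, 496 and 388 on FFD, 362, 356 and 314 on HiAD, 354 and 399 with PM, and 56.7, 320.2 and 312 in the libraries labelled RageHepKO, where the low value belonged to library 19. Pcx, pyruvate carboxylase, the entry step of gluconeogenesis, was between 4.67 and 9.91 in all libraries. None of these 3 passed in any comparison.

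In glycogen metabolism, 2 members rose with PM. Kupffer cell markers were also higher with PM (2 of 8 called, beside 3.31% of all genes). They summed to 153 to 184 against 53.1 to 67.0 on HiAD. Of the other markers 1 erythroid was higher, and 1 endothelial, 2 cholangiocyte and 2 stellate cell markers were lower. The part of all these markers in the PM results was not tested. Pygl (chromosome 12, 70190811 to 70231488) encodes liver glycogen phosphorylase, which breaks glycogen down. It was at 9.23, 8.92 and 11.002 on Chow, 8.72, 7.99 and 7.80 on FFD, 6.13, 7.49 and 7.49 on HiAD, 21.3 and 19.9 with PM, and 13.1, 7.96 and 6.47 in the libraries labelled RageHepKO. The PM libraries were the 2 highest of the 14, and the rise from HiAD was 1.43 ± 0.23 (limma adjusted p = 0.00357), a ratio of 2.93. It passed in 24 of 25 alternatives and had an adjusted p of 0.0526 without PM library 18. Ugp2 (chromosome 11, 21321138 to 21371201) makes UDP-glucose, the building block of glycogen. It was at 50.6, 40.4 and 51.0 on Chow, 66.2, 44.1 and 45.0 on FFD, 35.2, 51.5 and 41.8 on HiAD, 75.7 and 97.3 with PM, and 80.2, 84.3 and 69.8 in the libraries labelled RageHepKO. These 5 PM and RageHepKO-labelled libraries lay above all 9 others. From HiAD, Ugp2 rose by 1.004 ± 0.24 with PM (limma adjusted p = 0.0284) and was higher by 0.86 ± 0.22 in the libraries labelled RageHepKO (adjusted p = 0.0101). The PM call was lost without either PM library or without HiAD library 1 or 3, with differences of 0.83 to 1.18 over the alternatives. The other call was lost with both scalings named further on. The differences were then 0.50 and 0.44 on the log2 scale (limma adjusted p up to 0.133).

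The synthesis genes split in the libraries labelled RageHepKO. Gys2, liver glycogen synthase, was at 17.6, 18.5 and 21.4 on Chow, 13.0, 14.6 and 17.3 on FFD, 17.0, 15.3 and 13.7 on HiAD, 15.9 and 18.5 with PM, and 29.3, 36.2 and 37.3 in the libraries labelled RageHepKO. Gbe1, the branching enzyme, was at 6.18, 8.87 and 5.08 on Chow, 5.05, 3.93 and 4.32 on FFD, 5.82, 9.16 and 10.4 on HiAD, 10.2 and 12.3 with PM, and 4.52, 3.29 and 2.03 in the libraries labelled RageHepKO. Gys2 was thus above all other libraries there and Gbe1 below all HiAD libraries, at 1.11 ± 0.17 (limma adjusted p = 0.000928) and −1.15 ± 0.26 (adjusted p = 0.00617). Ppp1r3b, a subunit that targets protein phosphatase 1 to glycogen and so activates glycogen synthase, was at 10.03, 27.2 and 11.3 on Chow, 11.2, 12.0 and 9.59 on FFD, 17.6, 13.9 and 28.1 on HiAD, 21.4 and 24.3 with PM, and 7.92, 4.94 and 4.39 in the libraries labelled RageHepKO. It was lower in the libraries labelled RageHepKO than on HiAD by −1.61 ± 0.34 (limma adjusted p = 0.00452), with no overlap with any other group. Gys2, Gbe1 and Ppp1r3b passed with the same sign in all 24 alternatives tried, the other scalings included.

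The other targeting subunits varied most. Ppp1r3c was at 21.5, 1.36 and 11.2 on Chow, 62.0, 55.0 and 38.1 on FFD, 9.49, 21.7 and 3.996 on HiAD, 50.2 and 45.5 with PM, and 18.5, 23.3 and 22.7 in the libraries labelled RageHepKO. FFD and PM lay above HiAD without overlap, yet HiAD against FFD (−2.29 ± 0.68) and PM against HiAD (2.20 ± 0.76) had limma adjusted p-values of 0.104 and 0.122. Without Chow library 2 these became 0.0121 and 0.0168. Ppp1r3g, a subunit that mouse liver induces on fasting, was at 0.400, 314 and 1.07 on Chow, 0.153, 0.630 and 2.20 on FFD, 21.5, 1.21 and 2.30 on HiAD, 0.0963 and 0.0648 with PM, and 0 (as listed), 1.23 and 1.40 in the libraries labelled RageHepKO. Outside Chow library 2 and HiAD library 1 it did not exceed 2.30.

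The glucose transporters did not pass in any comparison. Slc2a2, the hepatocyte transporter GLUT2, was at 45.9, 15.6 and 37.8 on Chow, 32.7, 25.6 and 44.4 on FFD, 47.4, 61.3 and 56.4 on HiAD, 43.3 and 54.5 with PM, and 43.5, 29.6 and 19.2 in the libraries labelled RageHepKO. Its HiAD libraries lay above the libraries of Chow, FFD and the RageHepKO label, with a difference from HiAD of −0.89 ± 0.38 for the last (limma adjusted p = 0.0865), which passed without Chow library 2 (adjusted p = 0.0283) and without RageHepKO library 19 (adjusted p = 0.0434). Slc2a1, the widespread transporter GLUT1, was at 4.36, 4.96 and 3.49 on Chow, 4.30, 3.17 and 2.72 on FFD, 2.95, 4.67 and 2.72 on HiAD, 2.81 and 2.68 with PM, and 3.003, 3.99 and 2.99 in the libraries labelled RageHepKO, with overlap between Chow, FFD and HiAD.

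Of the insulin response genes, Foxo1 was called. Foxo1 (chromosome 3, 52268336 to 52353221) encodes a transcription factor that insulin keeps out of the nucleus. It was at 3.93, 11.3 and 4.95 on Chow, 5.05, 6.68 and 6.41 on FFD, 13.8, 9.22 and 13.2 on HiAD, 6.37 and 5.55 with PM, and 3.70, 4.33 and 4.17 in the libraries labelled RageHepKO. Only Chow library 2 lay within the HiAD range. Foxo1 was lower in the libraries labelled RageHepKO than on HiAD by −1.35 ± 0.28 (limma adjusted p = 0.00421), in all 24 alternatives. Against FFD, HiAD was at 0.88 ± 0.28 (limma adjusted p = 0.129), against Chow at 0.86 ± 0.28 (0.110), and PM against HiAD at −0.89 ± 0.32 (0.128). Without Chow library 2 these 3 differences had limma adjusted p-values of 0.0167, 0.00428 and 0.0176.

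Irs2, the insulin receptor substrate that FOXO1 raises in fasting, was at 5.23, 31.6 and 3.60 on Chow, 4.26, 6.26 and 9.62 on FFD, 3.36, 8.71 and 9.64 on HiAD, 6.96 and 5.32 with PM, and 1.59, 3.58 and 2.65 in the libraries labelled RageHepKO. Insr, the insulin receptor, was at 8.58, 14.2 and 9.82 on Chow, 9.47, 10.8 and 10.8 on FFD, 11.7, 11.4 and 15.5 on HiAD, 10.6 and 11.4 with PM, and 15.8, 10.2 and 8.73 in the libraries labelled RageHepKO. Neither passed, and in both genes the Chow library furthest from the others was library 2. Irs1, the other substrate, was between 1.98 and 6.27, with Chow (1.98 to 2.80) below FFD (3.34 to 5.70) and below HiAD (3.59 to 6.27) without overlap, at differences of 0.73 ± 0.23 and 0.65 ± 0.23 that did not pass (limma adjusted p = 0.314 and 0.137).

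In the pentose phosphate pathway, which makes NADPH and ribose, Taldo1 and Pgls were called. Taldo1, transaldolase of the non-oxidative branch, was at 10.9, 6.80 and 15.8 on Chow, 8.87, 10.7 and 9.91 on FFD, 6.66, 9.004 and 6.79 on HiAD, 11.3 and 12.1 with PM, and 22.4, 19.7 and 17.3 in the libraries labelled RageHepKO. Pgls, 6-phosphogluconolactonase of the oxidative branch, was at 11.8, 10.4 and 12.0 on Chow, 10.5, 7.29 and 9.62 on FFD, 8.74, 9.28 and 8.52 on HiAD, 8.34 and 8.19 with PM, and 10.1, 16.3 and 15.9 in the libraries labelled RageHepKO. Taldo1 was above every other library there (1.30 ± 0.24 from HiAD, limma adjusted p = 0.00227), whereas for Pgls library 19 fell among the FFD values (0.59 ± 0.19, adjusted p = 0.0320). Pgls lost its call in 9 of 24 alternatives, among them both scalings named further on and the removal of any 1 HiAD library or of RageHepKO library 20 or 21, with differences of 0.20 to 0.80. The rate-limiting G6pdx (0.540 to 3.35), Pgd (2.06 to 4.36) and Tkt (2.41 to 6.71) passed in no comparison. With PM, Tkt was at 6.52 and 6.71 against 3.28 to 4.25 on HiAD, at a difference of 0.72 ± 0.25 (limma adjusted p = 0.121).

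Chow library 2 held the highest or the lowest value of several members. It was the highest of the 14 libraries for 9 members, namely Slc37a4, Ppargc1a, Slc2a1, Pfkfb1, Fbp1, Irs2, Pck1, Ppp1r3g and Pfkfb3. Of these 8 were tested, and it was the highest for 11.5% of all tested genes. The lead was small for Slc2a1, at 4.96 against 4.67 in HiAD library 2. Ppp1r3g was at 314 there and at 0.400 and 1.07 in the other Chow libraries, Ppargc1a at 18.4 against 1.01 and 1.18, and Irs2 at 31.6 against 5.23 and 3.60. In the other direction, it was the lowest of the 14 libraries for 5 tested members and for 10.1% of all tested genes. These members were Khk, Sord, Tkt, Ppp1r3c and Slc2a2. Ppp1r3c was at 1.36 there against 21.5 and 11.2, and Slc2a2 at 15.6 against 45.9 and 37.8. Over all tested genes Chow library 2 was also the library furthest from its group mates, at a root mean square log2 difference of 0.777. Outside the list, 2 genes of the same physiology stood apart with it, singled out among the further pathway genes after their values were seen. Igfbp1, which insulin represses, was at 4537 against 16.2 and 16.7. G6pc, the catalytic subunit of glucose-6-phosphatase, was at 864 against 146 and 118. Another of these genes, Pdk4, described further on, lay within the FFD range in Chow library 2 and below all HiAD libraries. Hepatocyte markers differed there too, in both directions. Fgb was at 3717 against 631 and 625, Ahsg at 3681 against 1244 and 1115, and Alb at 9097 against 4426 and 4006. Apoa2 was at 2373 against 5674 and 8625, and Ttr at 872 against 1256 and 2376. The 4 neutrophil markers summed to 0.375 to 67.4 on Chow, with the highest sum in library 2, and to as much as 113 on FFD. Their part in these values was not tested.

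**Figure D4:**
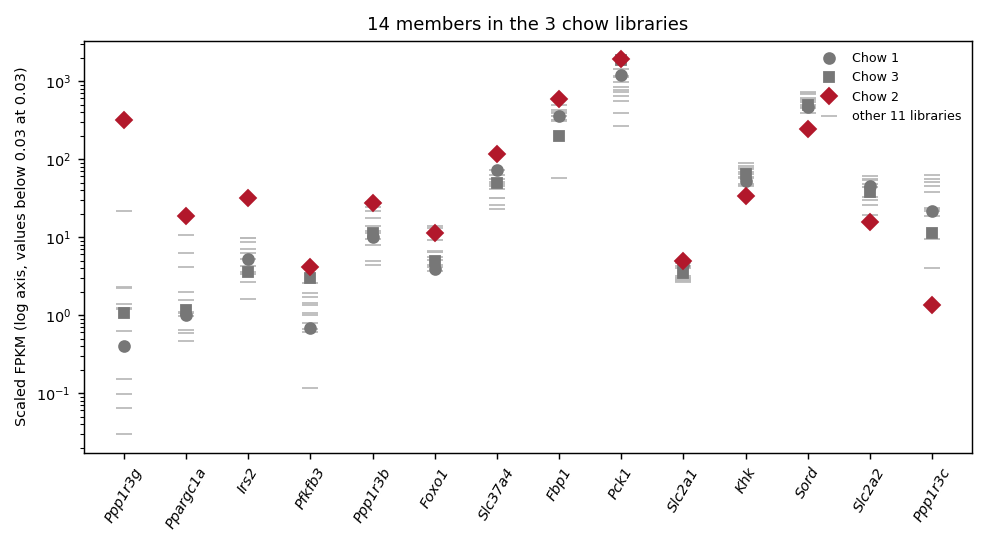
Scaled FPKM on a log axis of 14 members in Chow libraries 1 and 3 (grey circles and squares), Chow library 2 (red diamonds) and the other 11 libraries (grey dashes). Chow library 2 is highest for Ppp1r3g (314), Ppargc1a (18.4) and Irs2 (31.6) and lowest for Slc2a2 (15.6) and Ppp1r3c (1.36).

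The spread within Chow was wide for these genes. The median SD of log2(FPKM + 1) in Chow was 0.422 over the 37 tested members and 0.296 over all tested genes, and 4 members had an SD above 1 (Ppargc1a, Ppp1r3c, Ppp1r3g and Irs2). On FFD the medians were 0.203 and 0.188, on HiAD 0.228 and 0.227. Because all groups share an estimate of the spread, Chow library 2 also weighed on comparisons it was not part of. This library was singled out from these same values, and the counts without it are a description. Without it, 4 members passed in HiAD against Chow (7.36% of all genes did), with Foxo1 and Ppargc1a higher and Taldo1 (−0.75, limma adjusted p = 0.0446) and Tkfc lower. Another 4 passed in HiAD against FFD (Foxo1, Ppargc1a, Ppp1r3c and Slc37a4, with 4.6% of all genes), 7 with PM (8.47%), 17 in the libraries labelled RageHepKO (37.2%) and 0 in FFD against Chow (0.133%).

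Of the 9 members that were highest in Chow library 2, 5 had the letters TGACGT, the partial cyclic AMP response element, on either strand of the window around their start (Pck1, Pfkfb3, Ppargc1a, Ppp1r3g and Slc37a4). Among the other 29 members with a window, 2 had them (Hk2 and Ldha), and so did 8.37% of all 27025 genes with a window. The set of 9 was seen in the values first, and the count is a description. The windows of 3 of the 5 are printed, with the match in capitals. Of the 5, Ppp1r3g and Ppargc1a had the largest differences of Chow library 2 from its group mates. Pck1 hardly differed from 1 of them, at 1900.2 in library 2 and 1884 in Chow library 3.
Ppp1r3g, chr13:35967656-35967955, plus strand: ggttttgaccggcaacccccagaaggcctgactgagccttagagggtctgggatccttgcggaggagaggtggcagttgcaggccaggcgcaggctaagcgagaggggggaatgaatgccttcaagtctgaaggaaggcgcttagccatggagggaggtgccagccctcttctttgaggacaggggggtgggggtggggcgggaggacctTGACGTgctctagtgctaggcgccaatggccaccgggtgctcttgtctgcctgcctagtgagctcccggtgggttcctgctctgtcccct
Ppargc1a, chr5:51567676-51567975, minus strand: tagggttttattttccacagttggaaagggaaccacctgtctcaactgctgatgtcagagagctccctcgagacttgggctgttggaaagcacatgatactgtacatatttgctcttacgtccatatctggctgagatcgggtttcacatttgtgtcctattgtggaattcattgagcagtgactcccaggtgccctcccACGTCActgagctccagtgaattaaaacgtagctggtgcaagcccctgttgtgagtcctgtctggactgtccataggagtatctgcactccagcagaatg
Pck1, chr2:173152823-173153122, plus strand: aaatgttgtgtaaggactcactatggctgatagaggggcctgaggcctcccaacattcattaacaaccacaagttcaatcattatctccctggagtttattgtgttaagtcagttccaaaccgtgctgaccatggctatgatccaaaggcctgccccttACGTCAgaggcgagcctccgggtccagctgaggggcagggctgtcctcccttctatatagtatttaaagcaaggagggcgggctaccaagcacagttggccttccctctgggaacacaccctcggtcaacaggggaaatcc
The match lies 40 to 35 bases before the start in Ppp1r3g, 50 to 45 in Ppargc1a and 91 to 86 in Pck1. The full element TGACGTCA, which contains the partial element, was in the window of Ldha alone, or 2.63% of the 38 members, against 2.03% of all genes. Of the FoxO-type elements, TGTTTAC was in 0 of the 38 members' windows (4.05% of all genes) and CAAAACA in 3 (Gckr, Irs1 and Irs2; 7.89% against 7.2%).

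RageHepKO library 19 also stood apart from its group mates. Its mitochondrially encoded share of 53.1% was the highest of the series. It had the lowest value of the 14 libraries for 11 of the 37 tested members, and for 18.7% of all tested genes. Without it, 13 members passed against HiAD (30.4% of all genes did), 12 of them among the 14 named above. Pgk1 and Ppargc1a dropped out and Slc2a2 came in. The number of higher and lower members in this comparison depended on the scaling. It was 8 higher and 6 lower with the trimmed mean, 6 and 12 with values as deposited, and 5 and 11 with scaling to the sum without mitochondrial genes, which moved the median log2 fold change of all genes from 0.00 to −0.26 and −0.30. In HiAD against Chow the last scaling moved that median to 0.14, and in FFD against Chow the deposited values moved it to 0.13.

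Further genes of the same pathways were taken from a list of 111 names, of which 110 were in the table and 86 were tested. FFD against Chow gave 0 of 86 (16 at an unadjusted p under 0.05 in limma, with 0.0661% of all tested genes called). HiAD against Chow gave 3 higher (3.49% of the 86 against 4.62% of all genes) and HiAD against FFD 3 higher (3.49% against 3.1%). PM against HiAD gave 1 higher and 5 lower (6.98% against 6.45%). The libraries labelled RageHepKO against HiAD gave 7 higher and 20 lower (31.4% against 33.4%), or 2 and 33 with values as deposited. The shares were thus close to those of all genes, and single genes are described. Single libraries moved these counts. With PM there were 2 calls without either PM library, 11 without Chow library 2 and 10 without RageHepKO library 19, and without the last 2 libraries in turn HiAD against Chow gave 6 each. HiAD against FFD gave 5 without Chow library 2 and 1 without HiAD library 1 or 3 or FFD library 31. Pyruvate oxidation was represented in 4 of these comparisons by Pdk4 (chromosome 6, 5483351 to 5496309), the pyruvate dehydrogenase kinase that spares pyruvate in fasting. Pdk4 was at 3.31, 5.21 and 2.22 on Chow, 3.94, 2.31 and 8.001 on FFD, 21.7, 19.5 and 24.7 on HiAD, 1.24 and 0.642 with PM, and 0.0908, 2.61 and 1.27 in the libraries labelled RageHepKO. All HiAD libraries lay above all 11 others. HiAD was higher than Chow by 2.37 ± 0.43 (limma adjusted p = 0.00832) and higher than FFD by 2.11 ± 0.43 (adjusted p = 0.0189). Pdk4 fell by 3.58 ± 0.48 on the log2 scale with PM (adjusted p = 0.00101) and was at −3.46 ± 0.43 in the libraries labelled RageHepKO (adjusted p = 0.000351). The call against FFD was lost without HiAD library 1 or 3 or FFD library 28 or 31, and the other 3 Pdk4 calls were kept in all 16 alternatives.

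Mlxipl, which encodes ChREBP, ran the other way. It was at 7.98, 4.42 and 19.99 on Chow, 6.02, 3.57 and 4.30 on FFD, 3.07, 2.46 and 2.08 on HiAD, 16.9 and 18.4 with PM, and 43.3, 13.2 and 12.5 in the libraries labelled RageHepKO. The HiAD libraries were the 3 lowest of the 14. Mlxipl rose with PM by 2.41 ± 0.54 (limma adjusted p = 0.0204) and was higher in the libraries labelled RageHepKO by 2.54 ± 0.48 (adjusted p = 0.00265). The PM call was lost without HiAD library 2 or 3 or either PM library, and the other call was kept in all 16 alternatives. Txnip, a ChREBP target that restrains glucose uptake and whose start region is printed above, was at 44.4, 41.3 and 36.6 on Chow, 34.7, 41.3 and 51.4 on FFD, 42.0, 69.3 and 91.3 on HiAD, 21.3 and 21.2 with PM, and 46.3, 30.6 and 29.3 in the libraries labelled RageHepKO. With PM it was thus below every other library, a fall of 1.56 ± 0.31 on the log2 scale from HiAD (limma adjusted p = 0.0101), while Pklr was above every other library. This call was lost without either PM library. In the libraries labelled RageHepKO, Txnip was at −0.87 ± 0.27 from HiAD (limma adjusted p = 0.0274), and that call was lost without HiAD library 2 or 3 or RageHepKO library 20 or 21.

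**Figure D5:**
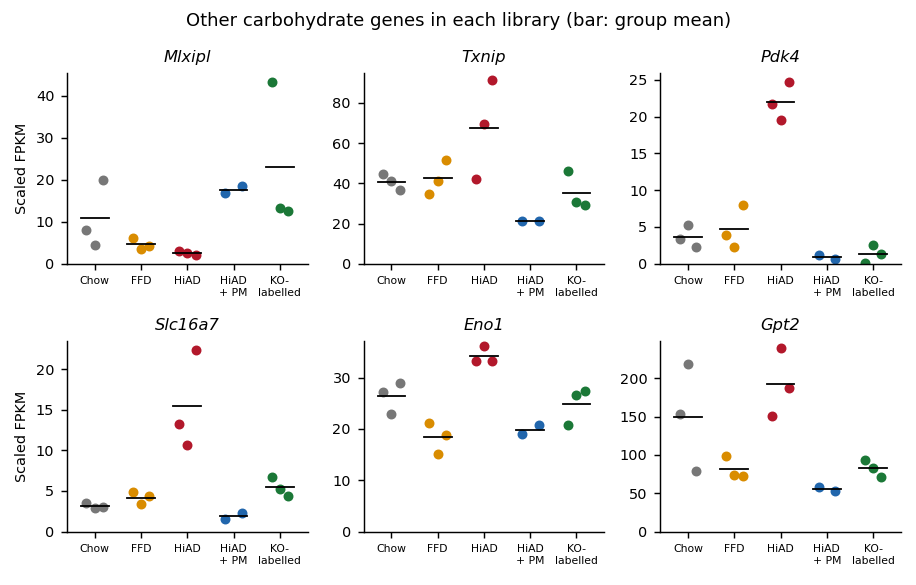
Scaled FPKM of 6 further carbohydrate genes in each of the 14 libraries (points), with the group mean as a bar, on axes that start at 0. Pdk4 is at 19.5 to 24.7 on HiAD and at most 8.001 elsewhere, while Mlxipl is lowest on HiAD, at 2.08 to 3.07.

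The remaining calls with the diets and PM were of 2 monocarboxylate carriers, an enolase and an alanine aminotransferase. Slc16a7, a carrier of pyruvate and lactate, was at 3.56, 2.87 and 3.02 on Chow, 4.82, 3.35 and 4.41 on FFD, 13.2, 10.7 and 22.4 on HiAD, 1.56 and 2.25 with PM, and 6.72, 5.23 and 4.43 in the libraries labelled RageHepKO, so that HiAD was again above all others. It was higher on HiAD than on Chow by 1.93 ± 0.24 (limma adjusted p = 0.000873) and than on FFD by 1.61 ± 0.24 (adjusted p = 0.00349), and fell with PM by 2.45 ± 0.27 (adjusted p = 0.000297). Slc16a1, the carrier MCT1, was at 19.02, 17.1 and 19.7 on Chow and 52.7, 42.1 and 43.1 on HiAD (1.26 ± 0.32, limma adjusted p = 0.0423), with FFD at 29.8, 56.0 and 64.2. Its call against Chow was lost in 10 of 16 alternatives, namely without any 1 Chow or HiAD library, either PM library, RageHepKO library 21 or FFD library 31. Eno1, enolase, was at 27.1, 23.0 and 29.0 on Chow, 21.2, 15.2 and 18.8 on FFD, 33.1, 36.1 and 33.2 on HiAD, 18.9 and 20.8 with PM, and 20.8, 26.5 and 27.4 in the libraries labelled RageHepKO. HiAD against FFD was at 0.87 ± 0.18 for Eno1 (limma adjusted p = 0.0193) and PM against HiAD at −0.75 ± 0.20 (adjusted p = 0.0394). Both Eno1 calls were lost with values as deposited and without any 1 HiAD library. The first was also lost without FFD library 31 or 32, and the second without Chow library 1, either PM library or FFD library 32. Of the 5 cholangiocyte markers 2 were higher on HiAD than on FFD and 2 lower with PM, and of the 6 stellate cell markers also 2 and 2, the same directions as Pdk4, Slc16a7 and Eno1. Their part in these values was not tested. Gpt2, an alanine aminotransferase that feeds gluconeogenesis, was at 58.2 and 53.3 with PM against 151, 239 and 187 on HiAD (−1.75 ± 0.36, limma adjusted p = 0.0123), a call that was lost without either PM library.

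In the libraries labelled RageHepKO, the further calls included genes of insulin and glucagon signalling. Gcgr, the glucagon receptor, was at 182, 117 and 165 there and at 54.8, 41.3 and 43.3 on HiAD, with the other groups between 43.6 and 84.4. It was higher by 1.70 ± 0.26 (limma adjusted p = 0.000928). Pdpk1, a kinase that transmits the insulin signal, was at 0.974, 1.64 and 1.70 against 4.13, 4.68 and 6.51 on HiAD, with no overlap. It was lower by −1.32 ± 0.24 (limma adjusted p = 0.00217). Also lower were, among others, Pik3r1, Gsk3b, Ptpn1, Foxo3, Nr3c1, Igfbp1 and Trib1 of the same group, Slc16a1, Slc16a7, Pdha1, Dlat, Pdk4, Pdp2, Gpt2, Gyg, Epm2a, Gpd1 and Txnip, and also higher were Galt, Slc2a8, Phka1, Phka2 and Pdk2. The calls of these last 5 were lost with values as deposited. Those of Igfbp1 and Gpd1 were lost in 11 and 10 of 16 alternatives, each of which left out a library, whereas Gcgr, Pdpk1, Gsk3b, Pdp2, Trib1, Slc16a1, Slc16a7 and Pdk4 passed in all 16. Without RageHepKO library 19 the count was 3 higher and 19 lower, and without HiAD library 3 it was 3 and 11. Without HiAD library 2 it was 5 and 11, and without RageHepKO library 21 it was 9 and 10. Kupffer cell markers summed to 116 to 284 in the libraries labelled RageHepKO and to 53.1 to 67.0 on HiAD. Of these 8 markers 4 were higher (15.7% of all genes were). Markers of other cell types differed too. Of 8 hepatocyte markers 3 were higher and 1 lower, and 2 endothelial, 2 erythroid and 1 lymphocyte markers were higher. All 3 tested cholangiocyte markers and 2 of 6 stellate cell markers were lower (17.7% of all genes were). The part of all these markers in the values was not tested.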

How the data were processed

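Total RNA of snap-frozen mouse liver was extracted with RNeasy kits, and libraries were made with a SMARTER mRNA kit. The authors deposited a table named for raw counts. The deposited values hold decimals and behave as FPKM made by the authors from mapped reads, a unit that is inferred here. No source used here names the program that made them. Per the submitters' processing notes reads were mapped to GRCm38 (mm10), and the study names GENCODE annotation, Dropseq tools, and limma with voom and sample weights.

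The table had 55583 entries. Those whose name had turned into a date (27) and repeats with equal values (129) were dropped, and 0 columns stayed unmapped. Scaling used the mean log ratio to the average library after trimming 30% at each end, over 6522 genes at 1 or more in every library. The filter asked for 1 scaled FPKM or more in 2 or more libraries. All 14 libraries entered a single model of 5 group means, fitted with limma 3.58.1 in R 4.3.3 on log2(FPKM + 1), with a variance trend and robust estimation, 5 contrasts and two-sided tests, and was first tested on simulated data. The choice of limma in place of a count model was set by the unit. Each library is from a mouse of its own. The sources used here do not say which mice shared a cage or on which days livers were collected.

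The members and the lists of other genes and markers were chosen with earlier results of these data known. Values in every library are given for members that passed in any contrast and for the 2 members of each role with the highest mean. Ppp1r3g and G6pc were added after their values were seen, as were the pattern searched in Pklr and the alternatives for the other genes. Some genes near the filter passed only through groups in which they are high. The alternatives were other scalings, pseudocounts of 0.1 and 0.5, no filter, the compared groups alone, no libraries labelled RageHepKO, sample weights, no trend, each library left out, and a replicate block. Locations are from GENCODE M21 and windows from RefSeq. Python 3.11.15, pandas 2.3.3, numpy 2.4.6 and matplotlib 3.10.9 were used.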

Additional observations from a re-analysis of the deposited data

How the results depend on the processing

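The number of members called in the libraries labelled RageHepKO against HiAD ranged from 11 to 18 over 10 alternatives, beside 14, and no call of a member changed sign under any alternative. The other counts were small and moved. With sample weights 4 members passed in FFD against Chow, 7 in HiAD against Chow, 5 in HiAD against FFD and 17 with PM. With no filter 0 passed in HiAD against Chow, 0 in HiAD against FFD and 2 with PM. With the compared groups alone 4 passed in HiAD against FFD and 9 with PM. Without the libraries labelled RageHepKO 1 passed in FFD against Chow and 4 in HiAD against Chow. With values as deposited 0 passed in HiAD against FFD, and scaled to the sum without mitochondrial genes 2 in HiAD against Chow. Leaving out 1 library at a time gave 0 to 1 in FFD against Chow, 0 to 4 in HiAD against Chow, 0 to 4 in HiAD against FFD, 1 to 7 with PM and 10 to 17 in the libraries labelled RageHepKO. For the other pathway genes the ranges were 0 to 0, 2 to 6, 1 to 5, 2 to 11 and 14 to 31, and scaling to the sum without mitochondrial genes gave 10 in HiAD against Chow and 5 in HiAD against FFD. The cause of these moves was not tested. Where a group was left with 1 library, that library is taken to vary like the others.

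The numbers 1 to 3 name replicates in both Chow and HiAD. Their deviations from the group means correlated at 0.04, −0.09 and −0.05 for equal numbers, and at −0.14 to 0.14 for unequal numbers. In groups of 3 libraries this cannot show whether equal numbers share more than the number. With the number as a replicate block 0 members passed in HiAD against Chow. Levels below about 1 FPKM (Hk1, Hk2, Pfkfb1, Aldoa) could not be compared, and with 2 or 3 libraries a difference that missed the threshold is not shown to be absent.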
